A study of Mus musculus with 31 samples.

Results

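Gene expression of CD8+ T cells sorted from the choroid plexus was compared between mice raised in an enriched environment (EE) and mice raised in a standard environment (SE). The comparison took every library of CD8+ cells, 7 from EE and 7 from SE, which are 14 of the 31 libraries of the series; the other 17 hold CD4+ T cells. All mice were female C57BL6/J, and no agent was given to either group. EE began at weaning, at 4 weeks of age, and lasted 4 weeks in large cages of 12 to 15 mice with running wheels and toys that were changed regularly, whereas SE mice lived 5 to 6 to a cage without objects. Mice of one environment were housed together in each experiment, so a cage effect and a housing effect cannot be told apart. A library was a pool of 9 to 20 cells sorted as CD45+ CD11b- CD3+ CD8+ and lysed directly, after digestion of the tissue with warm collagenase in both groups, and each molecule was counted once through a unique molecular identifier (UMI) at the 5′ end of its cDNA. The title of each library carries the number 1 or 2 after the environment. Its meaning is not given by the labels, although the choroid plexuses are described as collected in separate experiments. EE had 3 libraries of number 1 and 4 of number 2, and SE had 5 and 2, so the number was kept as a term in the test. The titles of SE replicates 5 and 6 give the same animal number, and another label names both SE5_6. These libraries may therefore come from the same animals.

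The choroid plexus makes cerebrospinal fluid in the ventricles of the brain, and its stroma holds T cells that meet the circulation on one side and the brain on the other. CD8+ T cells recognise peptides on MHC class I through a receptor helped by the CD8 coreceptor, and answer with cytotoxic granules, interferon gamma and chemokines. Within cells, chaperones of the HSP70 and HSP90 families fold proteins, and the inducible members among them are made when heat shock factor is activated by heat, oxidants or other protein damage.

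The 485 genes of the deposited table held 2499 to 26395 UMIs in a CD8 library, and 429 to 484 of the genes were detected. One UMI was worth 2.26 normalised counts in the shallowest library and 0.218 in the deepest, so low values of shallow libraries carry the widest counting error. Libraries of number 1 were the shallow ones, with 3083 to 5054 UMIs in EE and 2499 to 10089 in SE, against 7657 to 26395 and 12885 to 19411 in number 2. Within numbers, depth differed between EE and SE by -0.134 on the log2 scale (two-sided exact permutation test, p = 0.737). EE replicate 4 and SE replicate 4 stood apart from the others. Mitochondrial transcripts made up 8.08% of UMIs in the former and 7.14% in the latter, and the main values are therefore also given without both. EE replicate 7, also of number 1, had the profile least like the others. The chaperone median, Enpp2 and the test of Hspa1a within number 1 are therefore also given without it. Not every value that rests on it is given without it. Cd8a, the alpha chain of the coreceptor, had at least 1 UMI in every library, and Cd4 had 0 in all 14, each of which allows up to 3 UMIs.

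No gene passed the test between EE and SE. With limma on log2(normalised count + 1), 0 of 484 genes passed an adjusted p of 0.05, which is 0.0% of those tested, the lowest adjusted p being 0.899. A p under 0.05 before adjustment was reached by 6 genes higher in EE (1.24% of genes tested) and 7 lower in EE (1.45%), all with an adjusted p of 0.899. edgeR and DESeq2 on the recovered UMIs also called 0 genes, with 14 and 15 at an unadjusted p under 0.05, of which 4 and 7 were among the 13 of limma. Over all genes the median difference was 0.03 on the log2 scale, 264 genes being higher and 220 lower in EE. The values that follow describe genes and gene groups under that result. Hspa1a was the only gene to pass the test within a title number.

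Hspa1a encodes the stress-inducible HSP70. It lies on the minus strand of chromosome 17 from 34969190 to 34972156 (GRCm38) and overlaps Gm20481 on the opposite strand. Its normalised count was 20.4 ± 21.3 in EE (SD, n = 7; lowest 1.15, median 12.4, highest 54.8) and 21.2 ± 11 in SE (n = 7; 8.27, 20.4 and 33.7). The groups overlapped widely, and the low EE libraries were all of title number 1. In number 1, EE replicates 4, 5 and 7 had 6.16, 1.15 and 1.96. SE replicates 1, 2, 3, 4 and 7 had 8.58, 32.5, 29.9, 8.27 and 20.4, all above the EE libraries. In number 2, EE replicates 1, 2, 3 and 6 had 43.8, 22.9, 54.8 and 12.4, and SE replicates 5 and 6 had 15.3 and 33.7, within the range of EE.

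Over both numbers the log2 difference of Hspa1a was -1.23 (SE 0.450, 95% interval -2.16 to -0.31, adjusted p = 0.899). Within number 1 it was -2.34 with an adjusted p of 0.0409, the only gene called there (0.207% of genes tested), and within number 2 it was 0.33. Over the alternatives tried the adjusted p ran from 0.0409 to 0.993. The 3 EE libraries of number 1 held 5 Hspa1a UMIs among 11318, against 90 among 21551 in SE, a rate ratio of 0.110 (exact conditional 95% interval 0.0348 to 0.266, counting error only). In number 2 it was 320 among 57403 against 126 among 32296, a ratio of 1.44 (1.17 to 1.78). The call in number 1 rested on several libraries. It was lost without EE replicate 5 (adjusted p = 0.127; Enpp2 was then the gene called) or 7 (0.308), or without SE replicate 2 (0.314), 3 (0.361) or 7 (0.332), while the log2 difference ran from -1.98 to -2.84 over all libraries left out. The housing effect differed between the numbers by 2.68 on the log2 scale (SE 0.762), which did not pass adjustment over all genes (adjusted p = 0.507). Counts of Hspa1a and of its neighbour Hspa1b are hard to separate, since 63.8% of the 31-base words of Hspa1a also occur in Hspa1b.

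The promoters of this pair are shown because both encode inducible HSP70 and their upstream sequences are nearly the same. Both are RefSeq sequences (GRCm38.p6) of the 250 bases before the annotated start, written 5′ to 3′ on the gene's strand, with capitals marking the palindrome GAANNTTC, inverted copies of the unit that heat shock factor binds. They lie at chr17:34972157-34972406 (minus strand) for Hspa1a and chr17:34959239-34959488 (minus strand) for Hspa1b and differ at 3 bases.
Hspa1a: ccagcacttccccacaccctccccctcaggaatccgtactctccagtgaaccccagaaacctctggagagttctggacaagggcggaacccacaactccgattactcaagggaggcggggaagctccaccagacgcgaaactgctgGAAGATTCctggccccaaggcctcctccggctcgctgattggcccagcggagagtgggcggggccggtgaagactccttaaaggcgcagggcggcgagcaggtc
Hspa1b: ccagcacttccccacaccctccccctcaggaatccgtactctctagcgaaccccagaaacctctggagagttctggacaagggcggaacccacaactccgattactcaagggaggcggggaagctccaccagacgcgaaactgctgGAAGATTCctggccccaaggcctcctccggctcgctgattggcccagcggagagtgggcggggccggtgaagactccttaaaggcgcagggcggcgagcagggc
The palindrome, which reads the same on both strands, was found in the window from 250 bases before to 50 bases after the start in 7.86% of 32851 RefSeq promoters. Counted by gene it was in 9.04% of genes and in 5 of the 10 chaperone genes with an entry, namely Hspa1a, Hspa1b, Hspd1, Hspe1 and Dnaja1. The windows of Hspd1 and Hspe1 overlap on opposite strands, so these share 1 palindrome. A match of letters is a description and not evidence of binding.

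Of the 32 genes in the chaperone list, 13 were in the deposited table, from which the authors had removed genes of low abundance. Of these 2 were higher and 11 lower in EE, with a median log2 difference of -0.39 beside 0.03 over all genes; 3 had an unadjusted p under 0.05, Hspa1a, Hspa5 and Tcp1, all lower (1.45% of all genes tested), and 0 passed adjustment. With edgeR on the UMIs the median was -0.19. It was -0.14 without EE replicate 7 and -0.79 without SE replicate 5. In title number 1 the median was -0.79, with 11 genes lower, and in number 2 it was 0.22, with 5 lower. Hspa8, the constitutive HSP70, was 45 ± 13.8 in EE and 51.8 ± 6.83 in SE (log2 difference -0.32, SE 0.187, 95% interval -0.71 to 0.06). In number 1 its EE libraries had 34.9, 35.7 and 25.5 and its SE libraries 55.8, 52.3, 51.1, 59.9 and 56.5, without overlap. The stress-inducible HSP90 gene Hsp90aa1 was at 1.96 to 6.16 in EE and 6.20 to 17.2 in SE there, but EE replicate 4 and SE replicate 4 each had 3 UMIs, so the groups touched in counts. In number 2 the log2 differences of Hspa8 and Hsp90aa1 had the other sign, at 0.32 and 0.52.

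**Figure D1:**
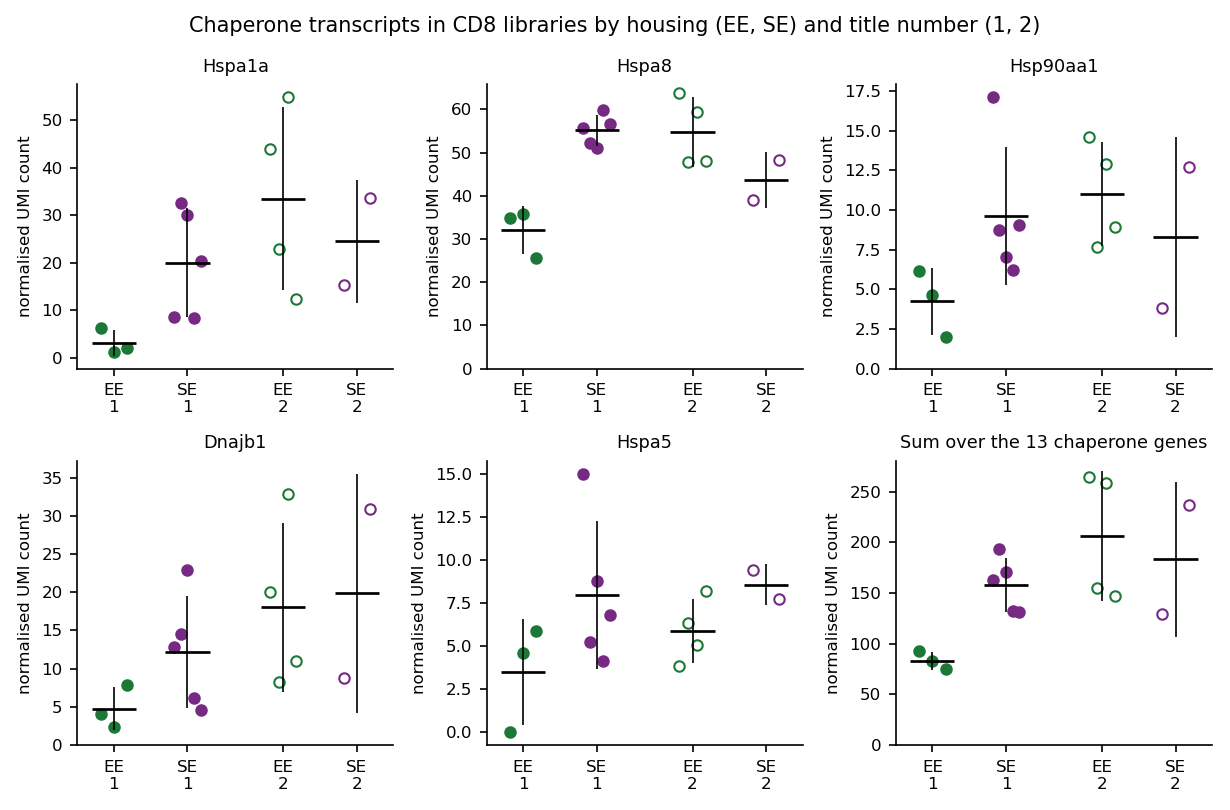
Normalised counts of Hspa1a, Hspa8, Hsp90aa1, Dnajb1 and Hspa5 and the sum over the 13 chaperone genes (vertical axes) in CD8 libraries by environment and title number. Each point is a library (filled for number 1, open for number 2), the horizontal line is the mean and the vertical line the SD; in number 1 the 3 EE libraries lie below the 5 SE libraries for Hspa1a, Hspa8 and the sum, and in number 2 EE and SE overlap.

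Hspa5 encodes BiP, the HSP70 of the endoplasmic reticulum. Its normalised count was 4.86 ± 2.56 in EE (lowest 0, median 5.08, highest 8.23) and 8.16 ± 3.56 in SE (4.13, 7.73 and 15.0), a log2 difference of -0.97 (SE 0.420, 95% interval -1.83 to -0.11). Of the EE libraries 6 of 7 were below the SE mean, and unlike Hspa1a the sign was the same in number 1 (-1.29) and number 2 (-0.51). Tcp1, a subunit of the cytosolic chaperonin that folds actin and tubulin, was 2.23 ± 1.97 in EE (0, 2.74 and 5.38) and 4.29 ± 2.12 in SE (0, 4.65 and 7.04; log2 difference -1.15, SE 0.495, 95% interval -2.17 to -0.13). Both groups had libraries at 0, and SE replicate 1 was the only SE library there. The HSP40 co-chaperones of HSP70, Dnajb1 and Dnaja1, had log2 differences of -0.69 and -0.72, with -1.12 and -1.42 in number 1 and -0.08 and 0.27 in number 2. Hsp90ab1, Hspd1 and Hspe1, which encode the constitutive cytosolic HSP90 and the mitochondrial chaperonin with its cofactor, were at -0.15, -0.01 and -0.09, and the HSP90 of the endoplasmic reticulum Hsp90b1 and the co-chaperone Stip1 at 0.21 and 0.17. Hspa1b was at -0.55. In number 1 its normalised count was 0 to 4.61 in EE and 2.07 to 8.71 in SE, so the groups overlapped there, unlike those of Hspa1a.

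Summed over the 13 genes, chaperone counts were 92.4, 83 and 74.6 in the EE libraries of number 1 and 131 to 193 in the SE libraries. As a share of UMIs this was 1.19% to 1.46% against 2.22% to 3.3%. In number 2 the sums were 147 to 265 in EE and 129 to 237 in SE, so the separation was absent there. Ubb, a polyubiquitin gene that is also induced by protein damage, was 44.4 ± 7.13 in the 3 EE and 76.7 ± 16.2 in the 5 SE libraries of number 1 without overlap, and its log2 difference was 0.18 in number 2. Other annotated genes share 50.3% of the 31-base words of Ubb, so its counts are uncertain. Of all genes, 8 had EE entirely below SE in number 1 (1.65% of genes tested). They were Hspa1a, Hspa8, Ubb, Hsp90aa1, Supt4a, Atp6v0e of the vacuolar ATPase, 1 ribosomal protein gene and 1 ribosomal pseudogene. Hspa8, Ubb, Hsp90aa1 and Atp6v0e were among them through the scaling alone. In UMIs, EE replicate 5 had 31 of Hspa8 and 32 of Ubb, above the 29 and 31 of SE replicate 4. EE replicate 5 held 5054 UMIs in all and SE replicate 4 held 2885. Hspa1a was among the 8 genes by 1 UMI, with 3 in EE replicate 4 and 4 in SE replicates 1 and 4. In 9 genes EE lay entirely above SE (1.86%), a similar share, among them Rpl19-ps1 and Tapbp. The 3 EE libraries of number 1 included the 2 with the highest Ttr and Enpp2 counts, and the part of other cells in the chaperone values was not tested.

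**Figure D2:**
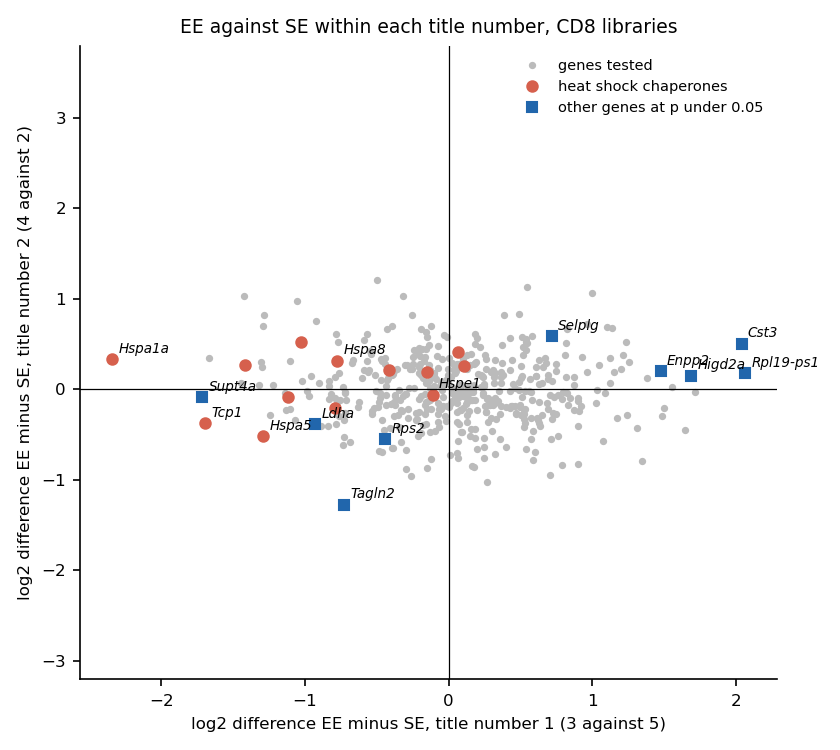
Log2 difference between EE and SE within title number 1 (horizontal axis) and within title number 2 (vertical axis) for the 484 genes, with the chaperone genes in orange and the other named genes at an unadjusted p under 0.05 as blue squares. Hspa1a lies at -2.34 and 0.33, and most chaperones lie left of 0 on the horizontal axis but on both sides of 0 on the vertical axis.

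Apart from chaperones, 4 genes were lower in EE at an unadjusted p under 0.05. Tagln2, an actin-binding protein of lymphocytes (chromosome 1, 172500047 to 172507380), was 2.69 ± 1.18 in EE (lowest 0.873, median 3.43, highest 3.93) and 6.32 ± 2.08 in SE (2.07, 6.79 and 8.80). All EE libraries were below the SE mean, and SE replicate 4 was the only SE library inside the EE range. The log2 difference was -0.96 (SE 0.395, 95% interval -1.77 to -0.14), with -0.73 in number 1 and -1.27 in number 2, and -1.04 without EE and SE replicates 4. Of the 31 actin cytoskeleton genes tested, 18 were higher in EE and the median was 0.09, so the value of Tagln2 was not shared by the list. Capzb, which caps actin filaments, was the highest of them at 0.87.

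Rps2, a protein of the small ribosomal subunit, was 33.6 ± 8.61 in EE (15.7, 37.9 and 39.7) and 43.5 ± 8.26 in SE (33.1, 42.3 and 58.2; log2 difference -0.49, SE 0.196, 95% interval -0.89 to -0.09). The signs were alike in the numbers, -0.44 and -0.55, and the lowest library was EE replicate 7. Other annotated genes share 48.8% of its 31-base words, so its counts are uncertain. Ldha, which encodes the muscle-type subunit of lactate dehydrogenase, was 5.83 ± 2.32 in EE (2.05, 6.11 and 8.46) and 9.16 ± 3.63 in SE (5.23, 7.04 and 13.6; log2 difference -0.70, SE 0.332, 95% interval -1.39 to -0.02). All 7 EE libraries were below the SE mean, though the ranges overlapped. Of the 5 glycolysis genes tested only Aldoa was higher in EE (0.26), and their median was -0.31. Supt4a, a transcription elongation factor, was 3.51 ± 3.69 in EE (0, 2.31 and 11) and 5.13 ± 1.18 in SE (3.52, 5.23 and 6.79; log2 difference -1.04, SE 0.441, 95% interval -1.95 to -0.13). The highest library of Supt4a was in EE, and the difference was -1.71 in number 1 and -0.09 in number 2. Other annotated genes share 51.5% of the 31-base words in its first 300 bases, so its counts are uncertain too.

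Cst3 and Enpp2, higher in EE at an unadjusted p under 0.05, are not T cell genes. Cst3 encodes cystatin C, a protease inhibitor abundant in myeloid and antigen presenting cells and in choroid plexus (chromosome 2, 148871722 to 148875692). It was 10.7 ± 7.28 in EE (lowest 4.37, median 10.4, highest 24.6) and 4.41 ± 3.99 in SE (0, 4.11 and 12.4; log2 difference 1.4, SE 0.486, 95% interval 0.40 to 2.4). Enpp2 encodes autotaxin, which choroid plexus epithelium secretes (chromosome 15, 54838901 to 54952892). It was 27.1 ± 29.0 in EE (6.18, 12.1 and 71.9) and 11.8 ± 7.21 in SE (6.79, 8.58 and 26.9; log2 difference 0.95, SE 0.417, 95% interval 0.09 to 1.81). The high EE libraries of Enpp2 were replicates 4 and 7, at 71.9 and 66.8, and the others lay within the SE range or just below it. Its difference was 1.48 in number 1 and 0.21 in number 2, and 0.58 without EE replicate 4 or 0.61 without EE replicate 7. That of Cst3 was 2.04 in number 1 and 0.51 in number 2.

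Ttr, transthyretin, the chief secreted protein of choroid plexus epithelium, was 134 ± 73.2 in EE and 102 ± 44.3 in SE (log2 difference 0.46, SE 0.246). Its values in EE replicates 4 and 7 were 240 and 236, and SE replicate 4 had 201, whereas the other 11 libraries had 68.0 to 119. The sort gate included CD45 and CD3, and Ttr and Enpp2 were present in all 14 libraries and Cst3 in all but SE replicate 7. Of the lists of other cells, the choroid plexus list had 2 genes in the table (median 0.70, both higher in EE) and the myeloid list had Cst3. The CD4 list had Cd4 at 0 and Icos at 5.26 in EE and 3.51 in SE (log2 difference 0.46), and none of the B cell, erythrocyte, platelet, NK cell, endothelial, fibroblast or brain cell markers was in the table. In libraries of pooled cells, fewer cells of a type and less RNA per cell cannot be told apart. Without EE and SE replicates 4 Cst3 was at 1.33, Enpp2 at 0.72, Tagln2 at -1.04, Rps2 at -0.63 and Hspa1a at -1.38, the chaperone median was -0.45, and 4 of the 13 genes still had an unadjusted p under 0.05, of which Enpp2 was not one.

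**Figure D3:**
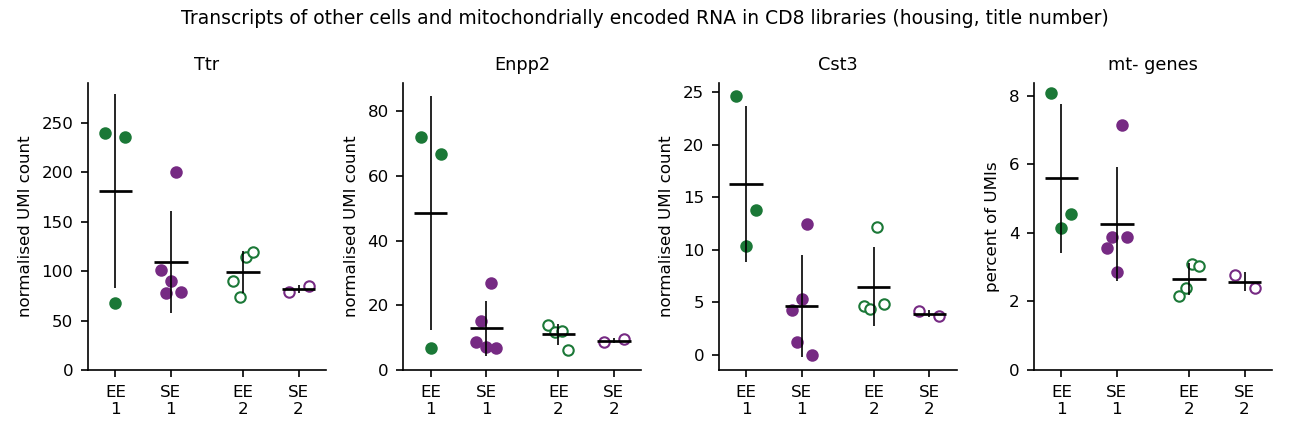
Normalised counts of Ttr, Enpp2 and Cst3 and the percentage of UMIs from mitochondrial genes (vertical axes) in the 14 CD8 libraries by environment and title number, with points for libraries, a horizontal line for the mean and a vertical line for the SD. EE replicates 4 and 7 and SE replicate 4 hold the highest Ttr and Enpp2 counts, and EE and SE replicates 4 the highest mitochondrial percentages.

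Rpl19-ps1 had the second lowest p among the genes higher in EE. It is annotated as a processed pseudogene of the ribosomal protein gene Rpl19 on the plus strand of chromosome 1 (85012114 to 85012704), opposite to C130026I21Rik. Its normalised count was 6.23 ± 2.20 in EE (lowest 3.85, median 5.76, highest 10.3) and 2.4 ± 2.3 in SE (0, 1.76 and 6.37; log2 difference 1.28, SE 0.474, 95% interval 0.31 to 2.26). Every EE library was above the SE mean, and in number 1 no SE library reached the EE range. The difference was 2.07 in number 1 and 0.18 in number 2. The sequences below are bases 49 to 138 of the pseudogene and the matching stretch of Rpl19 (GENCODE vM21, GRCm38), shown because reads of one can be assigned to the other; capitals mark the bases that differ.
Rpl19-ps1: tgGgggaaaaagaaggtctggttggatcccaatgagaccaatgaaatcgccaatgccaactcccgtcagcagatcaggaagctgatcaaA
Rpl19: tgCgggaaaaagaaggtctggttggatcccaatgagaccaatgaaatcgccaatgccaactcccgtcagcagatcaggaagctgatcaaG
Over its 591 bases the pseudogene differs from Rpl19 at 5, an identity of 99.2%, so the count is uncertain. Rpl19 itself was 38.7 ± 8.29 in EE and 31.0 ± 6.79 in SE. Of the 17 ribosomal pseudogenes tested 7 were higher in EE, with a median of -0.15.

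Higd2a and Selplg were also higher in EE at an unadjusted p under 0.05. Higd2a, an assembly factor of the respiratory chain, was 5.00 ± 1.77 in EE (2.62, 4.61 and 8.07) and 2.31 ± 2.01 in SE (0, 3.53 and 4.29; log2 difference 1.05, SE 0.489, 95% interval 0.04 to 2.06). Every EE library was above the SE mean while the ranges overlapped, and the difference was 1.69 in number 1 and 0.15 in number 2. Selplg encodes PSGL-1, the ligand of selectins on T cells (chromosome 5, 113818536 to 113832644). It was 10.2 ± 2.18 in EE (6.92, 10.3 and 13.0) and 6.90 ± 3.32 in SE (2.26, 7.35 and 10.7; log2 difference 0.67, SE 0.323, 95% interval 0.003 to 1.33). Its values were alike in the numbers, 0.72 and 0.59, and all 7 EE libraries were above the SE mean. Of the 78 ribosomal protein genes tested, 34 were higher in EE, with a median of -0.02, and an unadjusted p under 0.05 was reached by 1 higher and 1 lower gene.

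**Figure D4:**
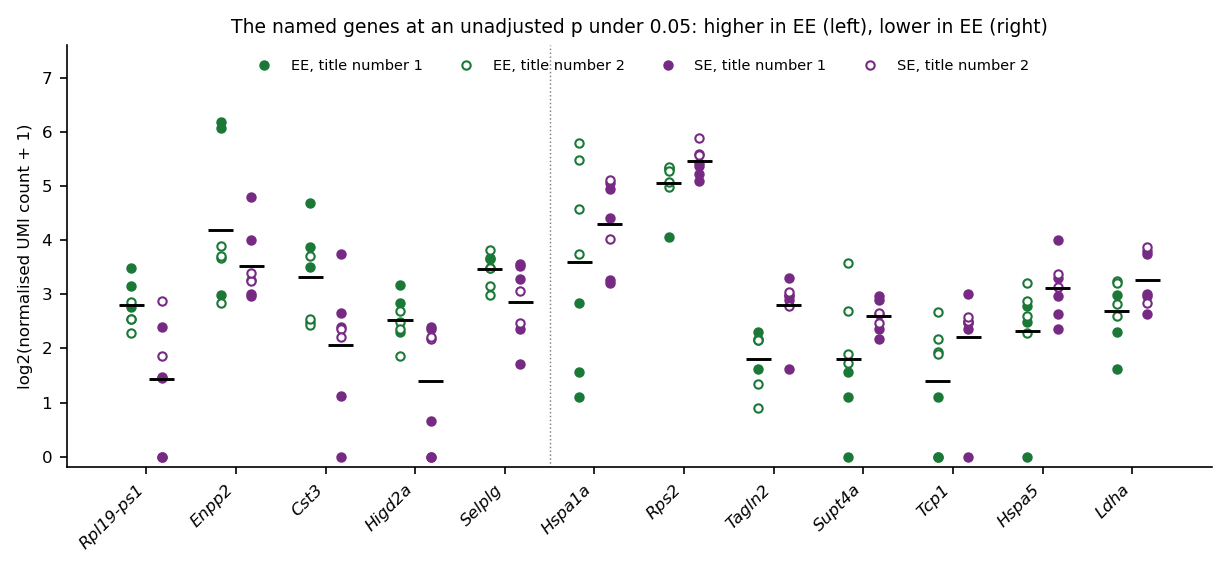
Log2(normalised count + 1) in each CD8 library of the named genes with an unadjusted p under 0.05, by environment, with a bar at the mean. EE and SE overlap in every gene shown, and the ranges of Tagln2 overlap only through SE replicate 4.

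No gene of the T cell identity list had an unadjusted p under 0.05. Cd8a was 8.25 ± 4.83 in EE and 7.59 ± 4.91 in SE (log2 difference 0.01, 95% interval -0.82 to 0.84). Cd8b1, the beta chain of the coreceptor, had a log2 difference of 0.86 (SE 0.440, 95% interval -0.05 to 1.76), the highest of the T cell identity list, and was at 0 in SE replicate 4. The CD3 chains Cd3d and Cd3g were at 0.16 and 0.22, and Ptprc, which encodes CD45, at -0.06. Of the 14 genes of that list 8 were higher in EE, with a median of 0.04. Ptprcap, which encodes a protein bound to CD45, was its lowest at -0.46, and its sign depended on the tool, with 0.24 in edgeR and 0.22 in DESeq2.

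Among effector products, Ccl5, a chemokine stored by memory CD8+ T cells, was 56.1 ± 22.7 in EE (20.7, 54.6 and 94.3) and 40.8 ± 11.8 in SE (20.7, 38.4 and 60.1; log2 difference 0.46, SE 0.254, 95% interval -0.06 to 0.98). Of the EE libraries 6 of 7 were above the SE mean, and the highest was EE replicate 7. Ifng, which encodes interferon gamma, was at -0.25 (95% interval -1.23 to 0.74), the granule protein gene Nkg7 at 0.01 and the chemokine gene Xcl1 at 0.04. Of the 7 effector genes 6 were higher in EE, with a median of 0.04. No member had an unadjusted p under 0.05.

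No receptor that guides T cells passed the test. Cxcr3, the receptor of interferon-induced chemokines, was 4.12 ± 1.31 in EE (1.96, 4.11 and 6.15) and 2.19 ± 2.58 in SE (0, 2.06 and 7.04; log2 difference 0.93, SE 0.512, 95% interval -0.12 to 1.98). SE replicates 1, 4 and 7 were at 0, yet the highest library was also in SE. Cxcr6, found on tissue-resident CD8+ T cells, was at 0.32 (-0.55 to 1.2), and S1pr1, the receptor by which T cells leave tissue, at 0.75 (-0.37 to 1.87). Of the 11 chemokine receptor and adhesion genes 7 were higher in EE with a median of 0.32, and Selplg alone had an unadjusted p under 0.05. Over all genes 54.5% were higher. With edgeR the median of the list was 0.07, and in title number 2, where 6 of its 11 genes were lower, it was -0.01. Rgs1, a regulator that dampens chemokine receptor signals, was the lowest at -0.58. Of the 5 naive and memory genes 2 were higher, and their median was within rounding of 0.

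Interferon-induced genes and the MHC class I pathway had medians of 0.21 and 0.09. Epsti1 was the highest of the 7 interferon-induced genes at 0.94 (-0.09 to 1.98), and 6 of the 7 were higher in EE; with edgeR their median was 0.54. Of the 10 class I genes 7 were higher, led by the peptide loading factor Tapbp (0.69), while the proteasome activator gene Psme2 was at -0.50. The constant chain gene of class I, B2m, was at 0.03 (-0.34 to 0.39). Immediate early genes, which are transcribed within minutes of a stimulus, had 2 higher and 11 lower of 13, with a median of -0.21. Ppp1r15a was the lowest at -0.75 and the phosphatase gene Dusp1 the highest at 0.58, and their medians were -0.20 in number 1 and 0.05 in number 2. In the glucocorticoid response list 1 of 4 genes was higher, Dusp1, with a median of -0.01. In none of these lists did a gene have an unadjusted p under 0.05.

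In energy metabolism, 8 of the 11 mitochondrially encoded genes were higher in EE (median 0.22), as were 20 of the 31 nuclear genes of the respiratory chain (median 0.12). The former had medians of 0.46 in number 1 and 0.05 in number 2, and EE replicate 4, with the highest mitochondrial share, is of number 1. mt-Nd2, a subunit of complex I, was the highest at 0.99 and mt-Nd5 the lowest at -0.40. Of the nuclear genes Uqcrc1 of complex III was at 0.94 and Atp5c1 of the ATP synthase at -0.77. Atp6v0e of the vacuolar ATPase was at -0.83 and Atp6v1f at 0.20. Nuclear noncoding RNAs were higher for all 5 genes, of which Rnu3b3 and Rnu3b4 cannot be counted apart because Rnu3b3 shares 100% of its 31-base words, with a median of 0.56 (0.91 in number 1 and 0.26 in number 2), Malat1 being at 0.75 and Neat1 at 0.43. RNA binding and splicing genes had 11 of 13 higher and a median of 0.25, which was 0.59 in number 1 and -0.19 in number 2.

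Translation factors had 8 of 16 higher (median -0.01), from Eif3f at -0.51 to Eif5a at 0.42. The survival, cell cycle and polyamine list had 2 of 7 higher (median -0.14), with cyclin D3, Ccnd3, at -0.74 and the survival gene Mcl1 at 0.12. Proteasome and ubiquitin genes had 3 of 8 higher (median -0.16), from the immunoproteasome gene Psmb8 at -0.50 to Psmb3 at 0.29. Chromatin genes had 2 of 7 higher (median -0.14), from H3f3a at -0.62 to Npm1 at 0.24. None of their genes had an unadjusted p under 0.05. With edgeR the medians were -0.45 for chromatin genes and -0.30 for the survival list, both further from 0 than that of the chaperones, and 0.01 over all genes.

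**Figure D5:**
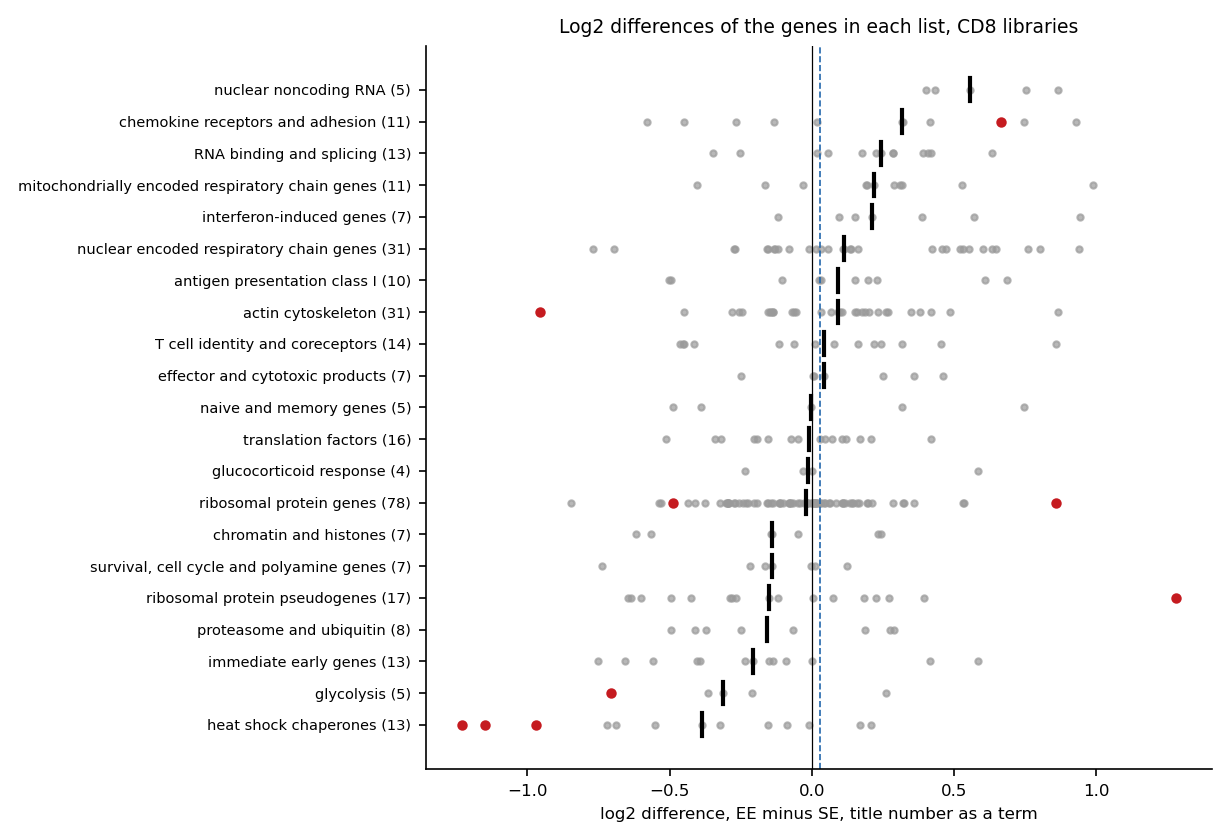
Log2 difference between EE and SE (horizontal axis) of each gene in the lists with at least 4 genes tested, with genes at an unadjusted p under 0.05 in red, the median of each list as a black tick and the median of all genes as a dashed blue line at 0.03. The chaperone median of -0.39 lies left of that line and the nuclear noncoding RNA median of 0.56 right of it.

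More genes passed the test between title numbers than between environments. With environment in the model, 10 genes differed between the numbers at an adjusted p under 0.05 (2.07% of genes tested). Hspa1a and Hspe1 were higher in number 2, by 1.85 and 1.90 on the log2 scale, with adjusted p of 0.0323 and 0.0221. The mitochondrial genes mt-Cytb, mt-Nd1, mt-Co1 and mt-Co3 were higher in number 1, as were RP23-8J15-4 and RP23-8J15-2. The first principal component, 16.9% of the variance, had 27.6% of its variance between numbers and 1.71% between environments. Its Pearson correlation with the log2 UMI total was 0.574. For the second component, 13.7% of the variance, these shares were 0.110% between numbers and 21.6% between environments. EE replicate 4 lay furthest out on the second component, at -17.5. Without the number term the log2 difference of Hspa1a between EE and SE was -0.70.

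Whether housing acted differently on CD8+ and CD4+ T cells was tested as an interaction over all 31 libraries. Of 485 genes, 0 passed adjustment with limma (smallest adjusted p 0.962), and edgeR and DESeq2 also called 0, with 11 and 13 at an unadjusted p under 0.05. With limma 10 genes had a higher EE effect in CD8 at an unadjusted p under 0.05 (2.06% of genes tested) and 4 a lower one (0.825%). Selplg differed by 1.38 (SE 0.470, 95% interval 0.43 to 2.33), being 0.67 in CD8 and -0.72 in CD4. Arhgdib, Capzb and Cxcr3 differed by 1.06, 1.57 and 1.75, and in each the CD4 value was below 0. Ptprcap was the lowest of those with a lower effect in CD8, at -1.45 (SE 0.673, 95% interval -2.80 to -0.09). For Hspa1a the difference was -0.32 (95% interval -1.52 to 0.88), with -0.91 in CD4, so this interval holds effects of either direction. Hspa8 differed by -0.03 (-0.64 to 0.57).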

How the data were processed

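Library titles, groups and cell counts come from the labels. The authors trimmed reads with cutadapt, aligned them with STAR 2.4.0a to the mouse genome (mm10, GRCm38, Ensembl annotation), collapsed UMIs, removed CD4 libraries with Cd8a or Cd8b reads, removed genes of low abundance and normalised with DESeq2. The deposited values are the authors' signal, normalised counts, that is UMIs divided by a size factor per library; whole UMIs were recovered for 100% of values within 0.01. The 485 genes are a subset, so their UMI total is not the full depth. UMI intervals and limits cover counting error only.

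Genes were tested with limma 3.58.1 (R 4.3.3) on log2(normalised count + 1), which understates changes of low genes, with environment and title number as terms and Benjamini-Hochberg adjustment over 484 genes (1 had no UMI in CD8 libraries). edgeR 4.0.16 (quasi-likelihood) and DESeq2 1.42.0 on recovered UMIs were alternatives. Python 3.11.15, pandas 2.3.3 and scipy 1.17.1 were used for summaries. The labels give an animal number per library, but numbers recur between title numbers and in SE replicates 5 and 6. It is therefore not certain that all libraries are separate animals, and p-values measure the spread between these libraries. Counts of the 42 library pairs within groups differed by more than sampling noise (chi-square per degree of freedom 1.24 to 3.16). No pair was thus a mere resampling of the same molecules, but the ratio cannot show whether libraries share animals. On simulated data (485 genes), limma called 27% of 100 genes changed by 1 on the log2 scale, 82% of 100 changed by 2 and 0.4% of 285 unchanged ones. The simulation gave every gene the same dispersion and held no title number effect or outlying library. These shares therefore need not be the power of the real comparison.

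The comparison, the gene lists and the rule for named genes were chosen with earlier results of these data known. The 76 named genes were a panel of T cell genes, those with the highest means, the smallest p in each direction, the extremes and unadjusted p under 0.05 of each list, and the largest differences between cell types; chaperones beyond these, Malat1, Neat1 and the genes that separated in title number 1 were named after their values were seen. Symbols matched GENCODE vM21 for 480 of 485 genes. Promoters come from RefSeq, and 10 of 13 chaperones had an entry. Some genes that the rule names are not reported here. Dots in symbols are printed as hyphens. Alternatives were other tools, pseudocounts, filters and scalings, title number handling, depth as a covariate, and leaving out each library.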

Additional observations from a re-analysis of the deposited data

Results flagged for a closer look

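In groups of 4 to 10 libraries, a library was picked out by its gap to the nearest of the others. The gap had to take up more of the group's range than Dixon's 95% critical value. For normally distributed values chance picks about 1 in 20 groups. Low counts with ties need not follow that rate. SE replicate 4 was picked out among the 7 SE libraries for Ttr (201 normalised counts, the others 77.8 to 101), Enpp2 (26.9, the others 6.79 to 15.1), Cst3 (12.4, the others 0 to 5.28), Eif3f, a translation initiation factor (16.5, the others 4.29 to 9.05), and S1pr1 (4.13, the others 0 to 1.36). For S1pr1 it held 2 UMIs, as did SE replicates 2 and 5, and SE replicate 6 held 3, so it stood out there through the scaling alone. The mitochondrial share of SE replicate 4 was 7.14% of UMIs, the others having 2.38% to 3.88%. Its share of Ttr was 3.36%, the others having 1.33% to 1.72%.

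EE replicate 4 was picked out for RP23-8J15-4 (172 normalised counts, the others 44.6 to 92.3), RP23-8J15-2 (76.0, the others 15.6 to 26.8) and the mitochondrial share (8.08%, the others 2.15% to 4.56%). EE replicate 7 was picked out for Rps2 (15.7, the others 30.8 to 39.7), Uqcrc1 (13.8, the others 2.18 to 6.16) and Samhd1, which limits nucleotides in immune cells (15.7, the others 0.391 to 4.80). Cd8a was highest in SE replicate 3 (17.6, the others 2.07 to 8.64), and Tcp1 was lowest in SE replicate 1 (0, the others 4.13 to 7.04). In UMIs, Tcp1 had 0 in SE replicate 1 and 2 in each of SE replicates 4 and 7.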

How the results depend on the processing

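Among 28 alternatives, 1976 of 2075 values of the 76 named genes kept their direction and side of the threshold, 98 turned sign and 1 was newly called. Counted by gene, 29 of the 76 turned sign at least once and 47 never did. No gene was called in the main test, so staying on that side of the threshold says little about stability. Of the named genes at an unadjusted p under 0.05, only Hspa1a turned sign, in title number 2. The cause of a turn was not tested. Values of genes below are log2 differences, EE minus SE. The shallow libraries and the small number of SE libraries of number 2 limit the values.

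With DESeq2, Ptprcap was 0.22, Ptprc 0.086, Mcl1 -0.21 and Psmb3 -0.13, and with edgeR Ptprcap 0.24, Ptprc 0.078, Mcl1 -0.19 and Psmb3 -0.16. With SE replicates 5 and 6 as 1 library, Rps3 was 0.00395, Nkg7 -0.067 and Cd8a -0.00648. Rescaled to the same total, B2m was -0.016, Nkg7 -0.037 and Cd8a -0.024, with 4 of the genes at an unadjusted p under 0.05 higher and 9 lower. With log2 UMIs as a covariate Nkg7 was -0.00195. With a pseudocount of 4, Mcl1 was -0.014 and Samhd1 0.0067. With no title number term, 12 genes had an unadjusted p under 0.05 (10 higher, 2 lower), Rps3 was 0.00884, RP23-8J15-4 -0.017, Actb -0.00196, Cd3g -0.033, Nkg7 -0.13, Ifng 0.091 and Xcl1 -0.061. Compared over all 14 libraries rather than within numbers, the UMI total differed by 0.42 on the log2 scale.

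In title number 1, 1 gene was called and 21 had an unadjusted p under 0.05; Rps3 was 0.026, Actb -0.00597, Tmsb4x -0.031, Cd3g -0.12, Nkg7 -0.25, Cd3d -0.19, Samhd1 0.25 and Cd8a -0.041. In title number 2, Ubb was 0.18, Hspa1a 0.33, mt-Nd2 -0.028, Nfkbia 0.22, Ptprcap 0.71, Npm1 -0.014, Eif3f 0.32, Ifng 0.19, Ptprc 0.068, Ppp1r15a 0.052, Atp6v0e 0.34, mt-Nd5 1.04, Xcl1 -0.66, Psmb3 -0.12 and S1pr1 -0.29. Without EE and SE replicates 4, chosen after seeing the data, 20 genes had an unadjusted p under 0.05 (4 of them among the 13), Ptprcap was 0.25, Ptprc 0.32, Hsp90b1 -0.084, Mcl1 -0.064, Samhd1 0.037 and Rgs1 0.015.

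Leaving out 1 library at a time, the count at an unadjusted p under 0.05 ran from 10 to 21, from EE replicate 7 left out to SE replicate 5 left out, and the UMI difference from -0.275 to 0.0645. Of the 10 genes without EE replicate 7, 5 were among the 13 of the main test. The ranges that crossed 0 were B2m -0.084 to 0.16, Cd8a -0.29 to 0.33, Hsp90b1 -0.038 to 0.39, Mcl1 -0.085 to 0.34, Nfkbia -0.68 to 0.036, Nkg7 -0.10 to 0.12, Ptprc -0.23 to 0.25, Ptprcap -0.70 to 0.22, Rpl13a -0.19 to 0.030, Rps3 -0.084 to 0.057, Samhd1 -0.59 to 0.065, Xcl1 -0.26 to 0.39 and mt-Nd5 -1.05 to 0.16. Of 699 list medians 10 moved by at least 1 SD. Between EE and SE, no paired analysis was possible because each animal lived in 1 environment and the replicate numbers only name the libraries. With animal number within environment as a block in CD8 (consensus correlation 0.232) 0 genes were called and 13 had an unadjusted p under 0.05. This block took equal animal numbers of both title numbers as 1 animal, unlike the block between cell types that follows. For the difference between cell types, 10 animals had both CD8 and CD4 libraries by environment, title number and animal number. SE replicates 5 and 6 of CD8 were both counted as animal 5 there. With the animal as a block, chosen after seeing the data (consensus correlation 0.0453), 0 genes were called, 15 had an unadjusted p under 0.05 and Selplg was at 1.38.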
